A study of Mus musculus with 12 samples.

Results

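Glycolysis and the genes switched on by hypoxia-inducible factor 1 (HIF1) were examined in peritoneal macrophages, scavenger and defence cells of the belly cavity, from female mice. The 34 genes were taken from a list of glucose transporters, glycolytic enzymes and HIF1 targets and were found by symbol among 24562 genes with 1 transcript each. All 34 were matched and all 34 passed the filter on low counts, which left 12641 genes for testing. RNA-seq libraries formed 4 groups of 3: cells of chow-fed mice at 0 h and at 24 h of lipopolysaccharide (LPS), and cells of mice on a high fat diet (HFD) at 0 h and at 24 h. LPS is a cell wall component of Gram-negative bacteria that Toll-like receptor 4 recognises. No group was sampled at 24 h without LPS, so LPS and the 24 h that passed cannot be told apart. A rise or fall with LPS here means 24 h against 0 h of LPS. The mice's strain, genotype, age and time on the diet and the LPS dose were not stated in the labels. Nor do the labels say whether the libraries of a group came from separate animals, so a p-value refers to the spread among these libraries, part or all of which can be technical. Within each diet the label numbers recur at 0 h and 24 h, and the main test did not pair equal numbers.

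Glycolysis splits glucose into pyruvate, which is either burnt in mitochondria or reduced to lactate and exported, and it supplies carbon to the pentose phosphate pathway and other side branches. HIF1 pairs the regulated subunit HIF1-alpha with ARNT and binds short motifs with the core ACGTG or GCGTG in the promoters of glycolytic and other hypoxia genes. Prolyl hydroxylases (encoded by Egln genes) mark HIF1-alpha for degradation when oxygen is present. Macrophages activated by LPS are known for raising glycolysis and HIF1-alpha even in normal oxygen. The comparisons asked how these genes differ between 24 h and 0 h of LPS in each diet, and between diets at each time. They also asked whether the LPS response differs between diets.

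Total counts ran from 9135057 to 20688308 per library except in HFD 0 h replicate 3, which had 2360244. There 3 counts equal 1.27 CPM (counts scaled to a common library total with TMM factors), against 0.145 CPM in the deepest library, and this covers counting error only. No pair of replicates agreed within counting noise (chi-square per degree of freedom 6.24 to 74.0 over genes), and the 2 highest values involved chow 24 h replicate 3. The summed level of 9 macrophage markers was 14435 to 15997 CPM at 0 h and 10271 to 12892 CPM at 24 h, and that of 5 markers of resident large peritoneal macrophages was 744 to 1250 CPM at 0 h and 373 to 471 CPM at 24 h. Single markers went in both directions with LPS. Of the macrophage list Lyz2, the most abundant, fell (-1.13 in chow and -1.03 in HFD on the log2 scale), Adgre1 (0.84 and 1.57), Cd14 (2.17 and 2.22) and Fcgr1 (2.27 and 2.23) rose, and the other 5 did not pass. Of the large macrophage list Cd9, which held nearly all of its counts, fell (-1.12 and -1.20), Timd4 rose (2.04 and 1.997), Gata6 and Icam2 did not pass and Lyve1 was too scarce to test. Markers of B cells summed to at most 21.9 CPM, those of T cells to 6.82, of mast cells to 28.3, of neutrophils to 127 and of red cells to 1.27. Stromal and mesothelial markers summed to 728 to 3148 CPM and were highest in both chow replicate 1 libraries. In bulk RNA, fewer cells of a type and less RNA per cell cannot be told apart, and the part of these marker levels in the results was not tested. A lane tag (8) stands in the labels of every chow 24 h library and of no chow 0 h library, while in HFD it stands only on 24 h replicate 1.

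The HIF1 motif can be read in the promoters themselves. The promoter windows below, from RefSeq on build GRCm38.p6, are the 250 bases before a start site, 5′ to 3′ on the gene's strand, with ACGTG and GCGTG matches on either strand in capitals. The first 5 belong to genes that rose with LPS in both diets (the lactate exporter Slc16a3, lactate dehydrogenase Ldha, hexokinase Hk2, collagen hydroxylase subunit P4ha1 and mitophagy receptor Bnip3), and Pdk1 is shown because it holds a match and its expression did not pass the test in either diet.
Slc16a3 (chr11:120948817-120949066, plus strand): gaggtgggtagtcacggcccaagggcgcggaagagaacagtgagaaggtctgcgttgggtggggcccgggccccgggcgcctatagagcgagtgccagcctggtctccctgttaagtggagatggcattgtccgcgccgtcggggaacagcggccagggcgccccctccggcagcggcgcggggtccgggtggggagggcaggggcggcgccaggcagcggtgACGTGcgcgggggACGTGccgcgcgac
Ldha (chr7:46845554-46845803, plus strand): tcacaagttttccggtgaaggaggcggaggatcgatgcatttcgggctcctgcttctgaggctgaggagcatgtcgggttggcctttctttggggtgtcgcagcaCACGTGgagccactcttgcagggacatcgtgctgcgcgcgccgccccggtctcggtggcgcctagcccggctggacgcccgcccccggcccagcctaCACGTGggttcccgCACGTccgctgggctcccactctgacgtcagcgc
Hk2 (chr6:82774455-82774704, minus strand): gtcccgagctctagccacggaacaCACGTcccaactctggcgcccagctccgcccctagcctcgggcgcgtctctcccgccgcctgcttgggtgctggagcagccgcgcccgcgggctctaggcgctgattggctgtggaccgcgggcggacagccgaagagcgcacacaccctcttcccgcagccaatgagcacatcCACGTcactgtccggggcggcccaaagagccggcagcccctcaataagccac
P4ha1 (chr10:59323046-59323295, plus strand): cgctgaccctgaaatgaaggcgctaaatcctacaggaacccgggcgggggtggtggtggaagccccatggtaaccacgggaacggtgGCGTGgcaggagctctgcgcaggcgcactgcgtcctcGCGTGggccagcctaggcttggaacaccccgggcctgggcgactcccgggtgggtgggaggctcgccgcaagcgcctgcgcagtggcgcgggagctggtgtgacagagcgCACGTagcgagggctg
Bnip3 (chr7:138909507-138909756, minus strand): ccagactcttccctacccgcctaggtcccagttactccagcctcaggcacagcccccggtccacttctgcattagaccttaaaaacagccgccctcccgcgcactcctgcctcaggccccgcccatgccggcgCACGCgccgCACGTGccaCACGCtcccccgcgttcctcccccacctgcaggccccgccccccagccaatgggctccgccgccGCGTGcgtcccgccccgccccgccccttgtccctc
Pdk1 (chr2:71872974-71873223, plus strand): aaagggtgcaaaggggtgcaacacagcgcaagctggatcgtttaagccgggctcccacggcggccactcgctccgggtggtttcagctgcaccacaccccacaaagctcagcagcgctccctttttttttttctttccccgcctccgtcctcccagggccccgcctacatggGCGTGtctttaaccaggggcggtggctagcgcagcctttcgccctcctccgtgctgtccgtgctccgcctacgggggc
Slc16a3 carries 2 matches in this stretch, Ldha 3, Hk2 2, P4ha1 3, Bnip3 4 and Pdk1 1. Ldha and Pdk1 have 2 windows each in the table, and the one with more matches is shown: the other Ldha window, which unlike the printed one lies before an annotated GENCODE transcript start, holds 1 before the start, and the other Pdk1 window holds 0. The form CACGTG reads as a match on both strands and was counted once. Of 33 members with a promoter entry, 31 held a match in a window of 300 bases (250 before to 50 after the start), against 46.7% of 27025 genes in the table. Counted by window, 39 of 47 member windows (83.0%) held one, against 43.8% of 32851 windows. Member windows were richer in G and C, with a median of 62.3% against 52.7%, and among the 7822 windows at or above the members' median GC, 70.9% held a match. Gpi1 and Tpi1 held none in their windows and rose with LPS in both diets, so in these members a match and a rise did not always go together. A match describes the letters only.

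LPS raised most of the 34 genes in both diets. In chow 25 rose and 2 fell (Ndrg1 and Pfkfb4), and 7 did not pass the test, where 13.7% of all tested genes rose and 12.9% fell (26.6% in either direction). In HFD 25 rose and 1 fell (Ndrg1), against 12.7% and 12% of all tested genes (24.6% in either direction). The median log2 fold change over the members was 0.89 in chow and 0.95 in HFD, and over all tested genes it was 0.0001 and -0.0023. At least 2-fold rises numbered 15 in chow (7.09% of all genes) and 16 in HFD (6.99%). Every 24 h library stood above every 0 h library for 26 members in each diet, as it did for 22.5% of all genes in chow and 18.2% in HFD. Every 24 h library stood below every 0 h library for Ndrg1 and Pfkfb4 in each diet, as for 22.9% and 17.2% of all genes. Of the 22 genes from glucose uptake to lactate 16 rose in each diet, and so did 9 of the 12 HIF1 genes. Gapdh in chow and Pgam1 in both diets, each the only member at its step, did not pass. Among the genes, 23 rose in both diets, Hk3 and P4ha2 passed in chow alone, Gapdh and Egln3 in HFD alone, and Adm, Aldoc, Pdk1, Pfkm and Pgam1 in neither. A fit with the lane tag as a covariate draws the tag's effect from HFD 24 h replicate 1 against the other HFD 24 h libraries, and in it 18 members rose and 0 fell in chow and 23 rose and 1 fell in HFD. Among members that passed in chow with or without the covariate, estimates moved by more than 1.5-fold for Egln1 (1.43), Egln3 (1.67, a call gained), Bnip3 (2.60), Ankrd37 (2.81) and Ndrg1 (-0.70). The calls that ended in chow were those of Slc2a6, Hk3, Gpi1, Pfkfb4, Aldoa, Tpi1, Pgk1, Ndrg1, Ddit4 and P4ha2. Apart from Ndrg1 these kept their estimates within 1.5-fold and had larger errors, such as 1.18 ± 0.45 in place of 1.18 ± 0.24 for Slc2a6 and 2.10 ± 0.83 in place of 2.03 ± 0.45 for Ddit4. Without that covariate the tag and LPS cannot be told apart in chow.

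**Figure D1:**
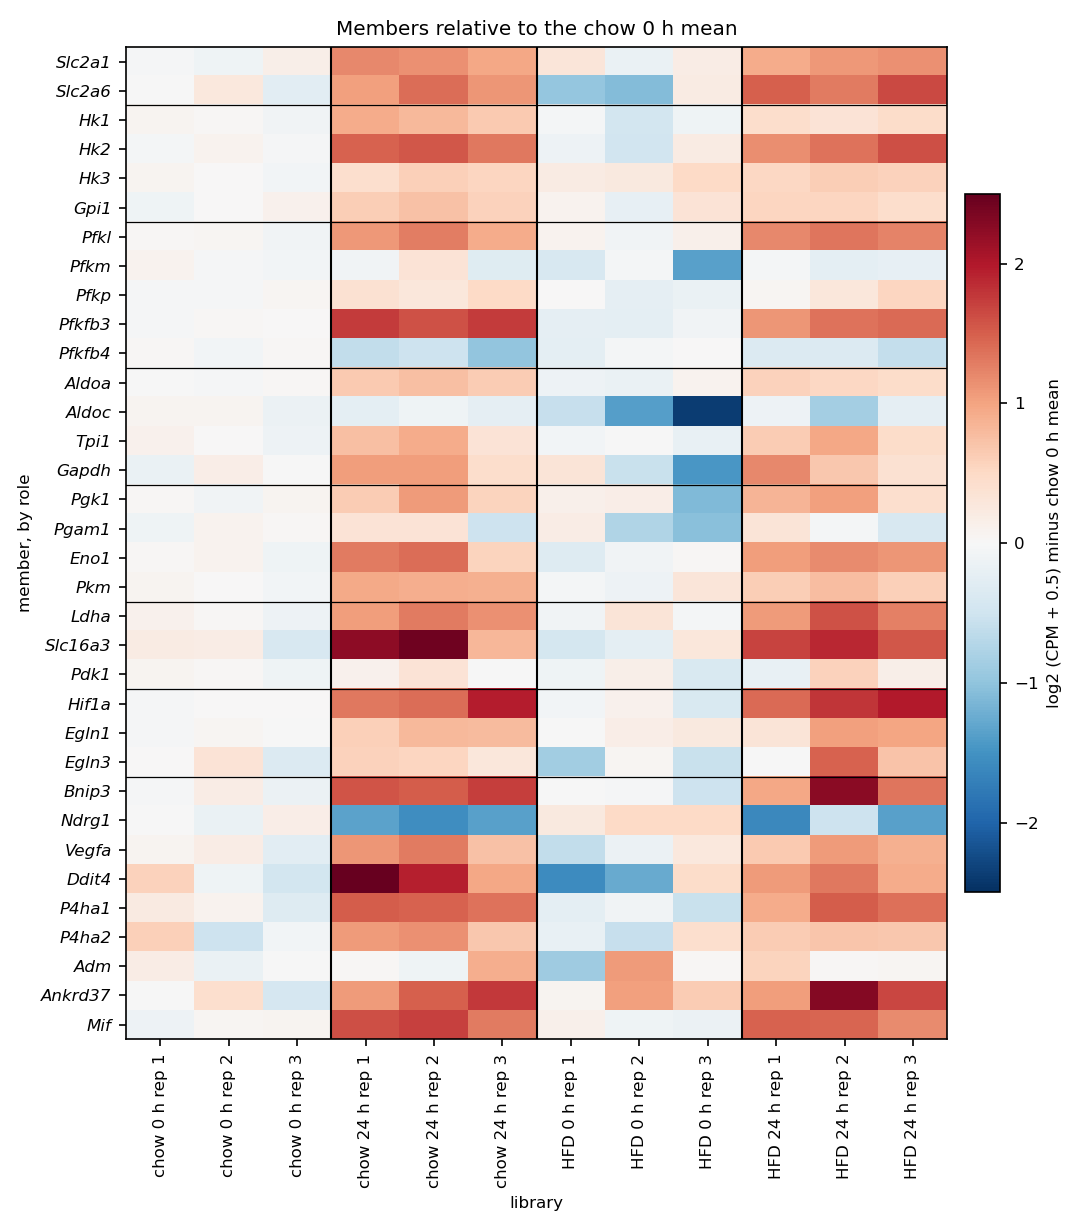
Level of each of the 34 members (rows, by role) in each of the 12 libraries (columns), as log2 of CPM plus 0.5 minus the chow 0 h mean, with red for higher, blue for lower and colours ending at 2.5. Most rows are red in all 24 h libraries of both diets, Ndrg1 is blue in all of them, and chow 24 h replicate 3 is paler than its group for Slc16a3 and Eno1.

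**Figure D2:**
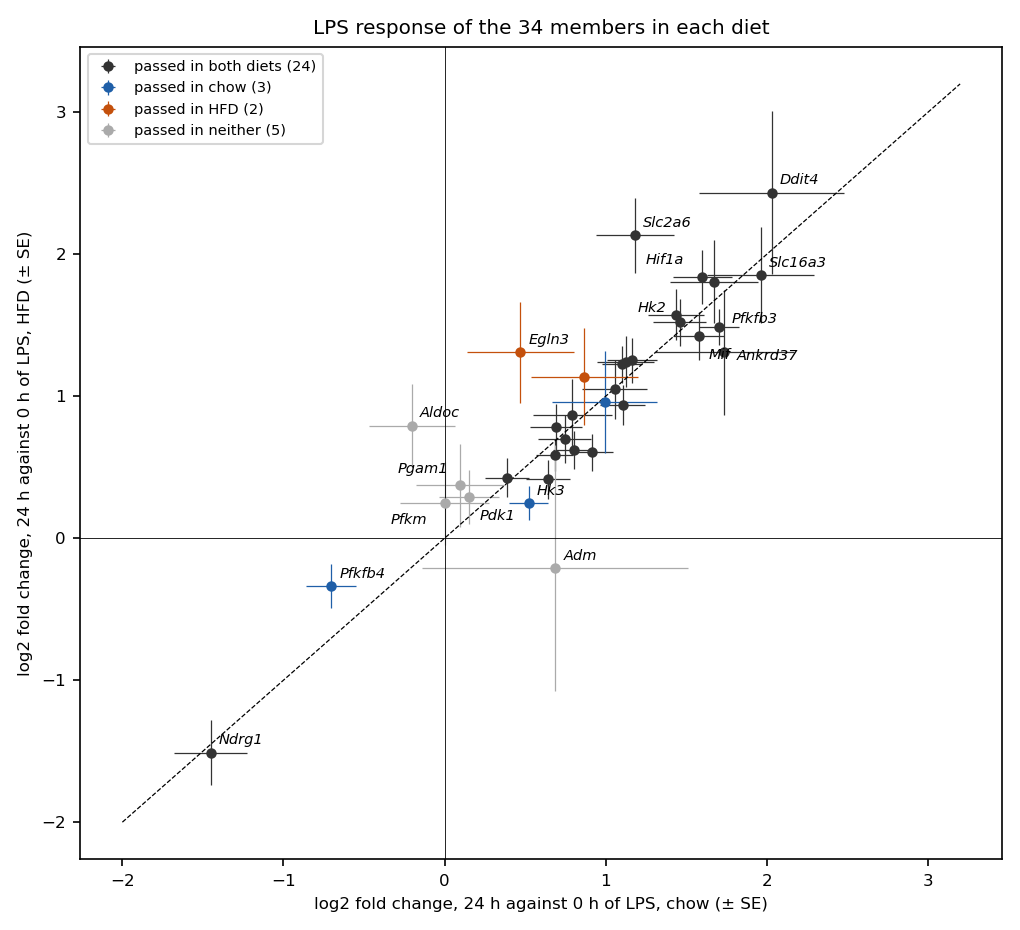
Log2 fold change at 24 h against 0 h of LPS in chow (x axis) and HFD (y axis) for the 34 members, with bars of 1 SE on each side and a dashed line where both are equal. Most points lie near the line between 0 and 2.43, Ndrg1 lies at -1.45 and -1.51, and Slc2a6, Aldoc and Egln3 lie above the line.

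Glucose entry rose in both diets. Slc2a1 encodes GLUT1, the main glucose carrier of activated macrophages (chromosome 4, 119108745 to 119137330). Its level was 113, 107 and 129 CPM in the chow 0 h libraries and 267, 258 and 227 CPM at 24 h. In HFD it was 143, 104 and 133 CPM at 0 h and 219.9, 246 and 258 CPM at 24 h. The groups did not overlap in either diet, and the rise was about the same size, at 1.11 ± 0.14 on the log2 scale in chow (± SE here and below, adjusted p = 1.17e-05) and 0.94 ± 0.14 in HFD (adjusted p = 7.71e-05). Slc2a6 encodes GLUT6, a transporter found on internal membranes. It stood at 35.03, 42.5 and 29.4 CPM in chow at 0 h and 72.3, 93.7 and 76.7 CPM at 24 h, and in HFD at 17.9, 16.3 and 40.5 CPM at 0 h and 99.8, 87.3 and 112 CPM at 24 h. Both HFD 0 h libraries of normal depth lay below every chow 0 h library, and the shallow replicate 3 lay within the chow range. Slc2a6 rose by 1.18 ± 0.24 in chow (adjusted p = 0.00145) and by 2.13 ± 0.26 in HFD (adjusted p = 1.22e-05).

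Hexokinases trap glucose in the cell as glucose 6-phosphate, the branch point to the pentose phosphate pathway. Hk2, the inducible isozyme (chromosome 6, 82725025 to 82774454), was at 90.7, 99.1 and 91.6 CPM in chow at 0 h and 261, 277 and 236 CPM at 24 h. The HFD libraries gave 86.2, 67.0 and 109 CPM and then 211, 242 and 289 CPM. Every stimulated library was above every unstimulated one. The change was 1.46 ± 0.16 in chow (adjusted p = 2.68e-06) and 1.52 ± 0.17 in HFD (adjusted p = 2.23e-06). Hk1, the constitutive isozyme, rose by 0.80 ± 0.13 in chow and 0.62 ± 0.13 in HFD, over a range of 85.0 to 224 CPM. Hk3, an isozyme of myeloid cells, rose by 0.52 ± 0.12 in chow (adjusted p = 0.00325), and its HFD estimate of 0.25 ± 0.12 did not pass (adjusted p = 0.152). Gpi1, the isomerase that makes fructose 6-phosphate, rose by 0.64 ± 0.14 in chow and by 0.42 ± 0.14 in HFD (adjusted p = 0.0346). The HFD call of Gpi1 ended without chow 0 h replicate 2, HFD 0 h replicate 1 or 2, or HFD 24 h replicate 1 or 2, with estimates of 0.29 to 0.42 and adjusted p up to 0.140. It also ended with upper-quartile scaling (0.34), the lane tag fitted (0.40) or only the HFD libraries fitted (0.41). Hk3 passed in HFD without HFD 0 h replicate 3, at 0.35.

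Per kilobase of transcript, Hk3 was the most abundant hexokinase mRNA in every group, at 165 ± 8.61 CPM per kb (SD, n = 3) in chow 0 h and 237 ± 13.8 in chow 24 h. Hk1 lay above Hk2 at 0 h in chow (27.4 ± 1.40 and 17.01 ± 0.833 CPM per kb), while at 24 h the pair stood at 47.8 ± 4.74 and 46.8 ± 3.77, no further apart than their spread. The Hk2 share of the 3 hexokinase levels went from 8.14% ± 0.530 to 14.1% ± 0.850 in chow and from 6.39% ± 0.928 to 13.7% ± 1.76 in HFD. In neither diet did the shares at 0 h and 24 h overlap.

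The phosphofructokinase step commits sugar to glycolysis, and its genes moved in both directions. Pfkfb3 makes fructose 2,6-bisphosphate, the activator of phosphofructokinase (chromosome 2, 11471430 to 11554071). Its level was 87.1, 91.5 and 89.6 CPM in chow at 0 h and 299.9, 271 and 302 CPM at 24 h. Under HFD the values were 76.9, 75.2 and 84.5 CPM and then 192, 229 and 239 CPM. No member had a smaller adjusted p in either diet: the rise was 1.70 ± 0.12 in chow (adjusted p = 1.61e-08) and 1.49 ± 0.13 in HFD (adjusted p = 9.90e-08). Its paralogue Pfkfb4, known as a hypoxia-inducible gene, went the other way. Pfkfb4 was at 34.5 to 36.9 CPM in chow 0 h and 18.02 to 25.1 CPM in chow 24 h, a fall of -0.71 ± 0.15 (adjusted p = 0.00222). The HFD ranges were 30.4 to 36.4 and 23.5 to 28.3 CPM, which do not overlap, and the estimate of -0.34 ± 0.16 did not pass (adjusted p = 0.138). Pfkfb3 made up 79.6% ± 0.964 of the summed Pfkfb3 and Pfkfb4 level per kb in chow 0 h and 95.4% ± 0.955 in chow 24 h, and 78.6% ± 1.36 and 92.8% ± 1.35 in HFD.

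Among the phosphofructokinases proper, Pfkl, the liver-type subunit, rose at least 2-fold. It was at 70.1, 70.3 and 64.5 CPM in chow 0 h and 145, 166 and 129.5 CPM in chow 24 h. The HFD values were 72.7, 64.0 and 75.1 CPM and then 158, 172 and 163 CPM. Groups did not overlap, and Pfkl rose by 1.10 ± 0.13 in chow (adjusted p = 3.79e-06) and 1.22 ± 0.13 in HFD (adjusted p = 1.48e-06). Pfkp, the platelet-type subunit, rose by 0.39 ± 0.14 and 0.43 ± 0.14. Its chow call ended without any 1 of the chow 0 h libraries or without chow 24 h replicate 1 or 3 (0.34 to 0.42), and its HFD call without HFD 0 h replicate 2 or 3 or HFD 24 h replicate 2 or 3 (0.32 to 0.46). Upper-quartile scaling ended the chow and HFD calls (0.32 and 0.35), and fitting only the HFD libraries ended the HFD call (0.42). Pfkm, the muscle-type subunit, stayed at 2.25 to 8.53 CPM over the 12 libraries and passed in neither diet. The order of levels per kb turned over: Pfkp held 52.8% ± 2.09 and Pfkl 41.9% ± 1.86 of the 3 subunits in chow 0 h, and Pfkl held 54.6% ± 4.27 in chow 24 h. In HFD the Pfkl share was 45.5% ± 2.60 at 0 h and 59.3% ± 3.58 at 24 h.

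**Figure D3:**
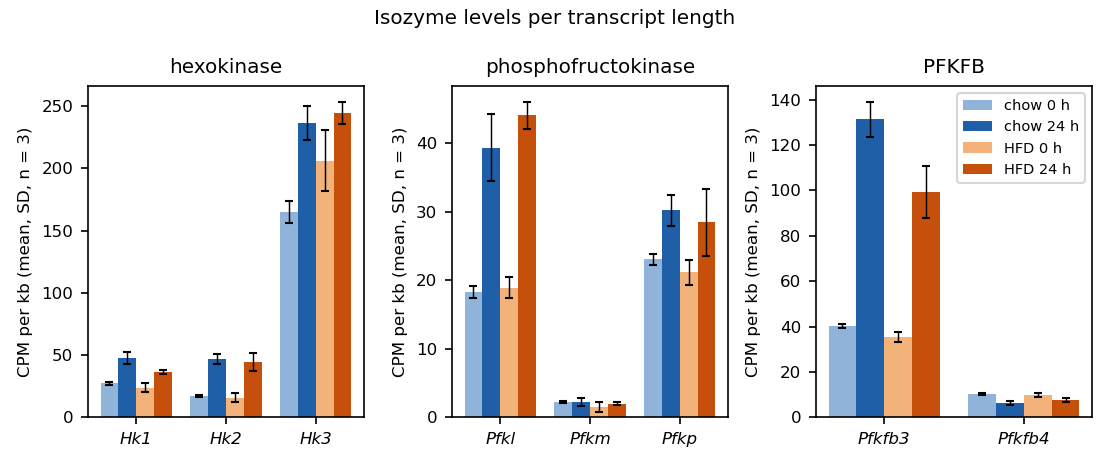
Mean level in CPM per kb of transcript (bars, error bars of 1 SD, n = 3) of the isozymes of 3 steps in the 4 groups. Hk3 stands highest among hexokinases in every group, Pfkl passes Pfkp at 24 h in both diets, and Pfkfb3 rises at 24 h while Pfkfb4 is lower.

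Of 4 triose-stage genes 2 rose in chow and 3 in HFD. Aldoa, the main aldolase, had the highest counted level per kb of the 34 genes. That order can depend on how reads that map to several places were counted, which was not stated. Aldoa was at 826 ± 17.1 CPM per kb in chow 0 h and 1328 ± 50.1 in chow 24 h. It rose by 0.68 ± 0.12 in chow and 0.59 ± 0.12 in HFD. Its paralogue Aldoc passed in neither diet (-0.20 ± 0.27 in chow and 0.79 ± 0.29 in HFD, adjusted p = 0.641 and 0.0577). The HFD estimate did pass in 7 of 22 alternatives, among them DESeq2 (0.83), a replicate block (0.84) and the fit without HFD 0 h replicate 1 (1.34), with adjusted p from 0.00456 to 0.186 over all of them. Tpi1, triose phosphate isomerase, rose by 0.69 ± 0.16 and 0.78 ± 0.16. Gapdh, often taken as a reference gene, was at 127, 159 and 141 CPM in chow 0 h and 292, 295 and 193 CPM in chow 24 h. Its HFD libraries were at 178, 96.5 and 51.7 CPM at 0 h and 325, 226 and 185 CPM at 24 h, a wide spread in which no 0 h library reached a 24 h one. Gapdh rose by 1.14 ± 0.34 in HFD (adjusted p = 0.0247), and its chow estimate of 0.87 ± 0.33 did not pass (adjusted p = 0.0743). The HFD call ended when HFD 0 h replicate 2 was left out (1.05) or, at 24 h, HFD replicate 1 (0.91), and also with no filter (1.19), the lane tag fitted (0.88) or only the HFD libraries fitted (1.14). In chow a Gapdh call appeared without HFD 0 h replicate 1 or 3 or HFD 24 h replicate 1, with a replicate block and with only the chow libraries fitted (0.85 to 0.87). Gapdh has 75 annotated pseudogene copies of at least 200 bases at 95% identity or more, so its counts are uncertain where reads could map to several places.

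Lower glycolysis runs from 1,3-bisphosphoglycerate to pyruvate. Eno1, enolase, was at 103, 108 and 93.4 CPM in chow 0 h and 249, 266 and 148 CPM in chow 24 h. Under HFD the libraries gave 81.1, 95.6 and 103 CPM and then 209, 231 and 219 CPM. Its rise was 1.13 ± 0.18 in chow (adjusted p = 0.000115) and 1.24 ± 0.18 in HFD (adjusted p = 5.26e-05), with chow 24 h replicate 3 well below its group yet above all 0 h libraries. Pkm, pyruvate kinase, rose by 0.91 ± 0.13 in chow and 0.61 ± 0.13 in HFD, over 807 to 1703 CPM. Pgk1, the first ATP-making enzyme of the path, rose by 0.79 ± 0.24 and 0.87 ± 0.25 at only 4.95 to 24.0 CPM. Its chow call ended without chow 0 h replicate 1 or 2 or chow 24 h replicate 2 (0.64 to 0.82) and its HFD call without HFD 24 h replicate 2 (0.75). Pgam1, phosphoglycerate mutase, did not pass in chow (0.10 ± 0.28) or HFD (0.37 ± 0.29), and passed in HFD without HFD 0 h replicate 1, at 0.87. Eno1, Pkm, Pgk1, Pgam1, Tpi1, Gpi1, Ldha, Bnip3 and Mif also have between 1 and 4 annotated pseudogene copies, and the labels do not say how reads that map to several places were counted.

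At the end of the path Ldha and Slc16a3 rose and Pdk1 did not pass. Ldha reduces pyruvate to lactate (chromosome 7, 46842274 to 46855627). Its level was 478, 454 and 409 CPM in chow 0 h and 916, 1105 and 981 CPM in chow 24 h. The HFD levels were 419, 559 and 429 CPM and then 939, 1348 and 1068 CPM. Without overlap in either diet, Ldha rose by 1.16 ± 0.16 in chow (adjusted p = 2.01e-05) and 1.25 ± 0.16 in HFD (adjusted p = 1.01e-05). Slc16a3 encodes MCT4, which carries lactate out of the cell (chromosome 11, 120948484 to 120959000, promoter shown above). It stood at 69.7, 69.1 and 45.6 CPM in chow 0 h and 284, 327 and 108 CPM in chow 24 h, and in HFD at 44.3, 51.2 and 73.7 CPM and then 195, 225 and 178 CPM. Chow 24 h replicate 3 was far below its group but above all 0 h libraries. The rise was the largest of the glycolytic genes in chow, 1.96 ± 0.33 (adjusted p = 0.000514), and was 1.85 ± 0.34 in HFD (adjusted p = 0.00103). Pdk1, which blocks pyruvate entry into mitochondria and is a textbook HIF1 target, was at 21.6 to 42.3 CPM over all libraries and passed in neither diet (0.15 ± 0.19 and 0.29 ± 0.19, adjusted p = 0.614 and 0.307).

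Hif1a itself rose (chromosome 12, 73901324 to 73947554). It was at 154, 158 and 158 CPM in chow 0 h and 393, 416 and 615 CPM in chow 24 h. In HFD it was at 150.1, 169.5 and 120.0 CPM and then 421, 539 and 623 CPM. In chow the unstimulated libraries sat close together and the stimulated ones spread widely above them, replicate 3 at 24 h being the highest. In HFD the libraries were spread at both times, with all 24 h libraries above all 0 h libraries. Hif1a rose by 1.60 ± 0.18 in chow (adjusted p = 3.90e-06) and 1.84 ± 0.19 in HFD (adjusted p = 9.55e-07). Of the hydroxylases, Egln1 (PHD2, the main oxygen sensor) rose by 0.74 ± 0.17 and 0.70 ± 0.17 over 37.4 to 79.2 CPM. Egln3 (PHD3, a HIF1 target that feeds back on HIF) was at 8.24, 10.5 and 6.32 CPM in chow 0 h and 12.5, 12.2 and 10.1 CPM in chow 24 h, where the groups overlapped. Its HFD values were 4.27, 8.46 and 5.39 CPM and then 8.15, 23.7 and 13.7 CPM, also with overlap. Egln3 rose in HFD (1.31 ± 0.36, adjusted p = 0.0118) but lost that call without HFD 0 h replicate 1 (1.06) and likewise without replicate 2 of HFD 24 h (0.86). Its chow estimate was 0.47 ± 0.33 (adjusted p = 0.34), and it passed only with the lane tag fitted (1.67).

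**Figure D4:**
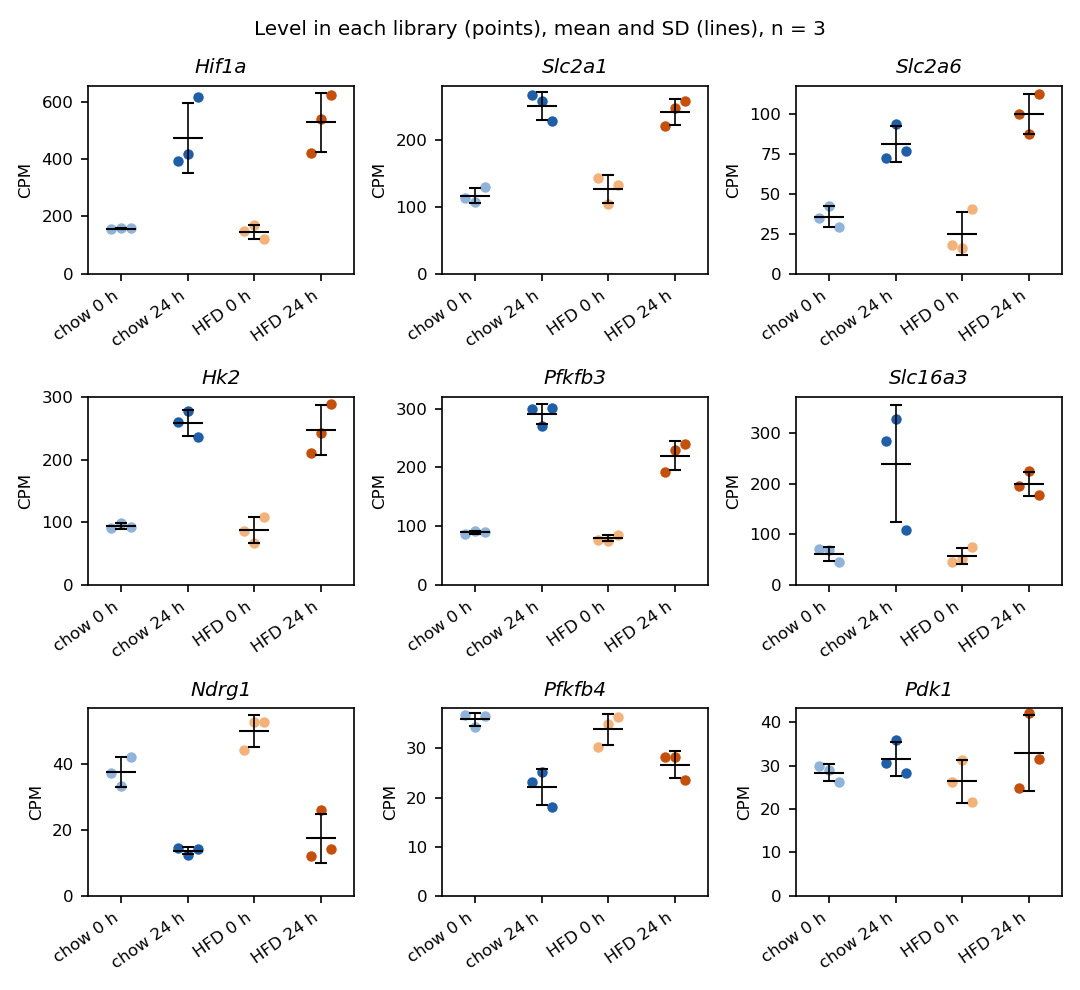
CPM of 9 members in each library (points), with the mean and SD of the 3 libraries of a group (lines). The 24 h points stand above all 0 h points in both diets for the first 6 genes, below them for Ndrg1 and Pfkfb4, and among them for Pdk1, and chow 24 h replicate 3 is the low point for Slc16a3 (108 CPM) and the high one for Hif1a (615 CPM).

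Of 9 HIF1 targets outside glycolysis 7 rose and 1 fell in chow, and 6 rose and 1 fell in HFD. Bnip3, a mitophagy receptor, was at 7.13, 8.35 and 6.57 CPM in chow 0 h and 22.8, 21.9 and 25.5 CPM in chow 24 h, and in HFD at 7.28, 7.12 and 4.95 CPM and then 14.7, 36.7 and 19.4 CPM. It rose by 1.67 ± 0.27 (adjusted p = 0.000163) and 1.81 ± 0.29 (adjusted p = 0.000152). P4ha1, a subunit of the enzyme that hydroxylates collagen, was at 59.2, 53.8 and 40.2 CPM and then 145, 142 and 129 CPM in chow. In HFD P4ha1 was at 42.2, 47.2 and 34.2 CPM and then 96.4, 144 and 133 CPM. Groups did not overlap for either gene, and P4ha1 rose by 1.44 ± 0.17 in chow (adjusted p = 6.89e-06) and 1.57 ± 0.18 in HFD (adjusted p = 3.86e-06). Its paralogue P4ha2, at 2.004 to 7.81 CPM, rose in chow (0.99 ± 0.33, adjusted p = 0.0312) and did not pass in HFD (0.96 ± 0.36, adjusted p = 0.0644). The chow call of P4ha2 ended without chow 0 h replicate 2 or 3 or chow 24 h replicate 1 or 2 (0.74 to 0.96), and an HFD call appeared without chow 0 h replicate 1 (0.98) or HFD 0 h replicate 3 (1.18).

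Of the secreted and stress-response targets 4 rose in both diets and Adm passed in neither. Mif, a cytokine that macrophages store and release, was at 12.8, 14.4 and 14.8 CPM in chow 0 h and 43.6, 46.7 and 35.4 CPM in chow 24 h, and at 15.3, 13.0 and 12.6 CPM and then 39.8, 39.1 and 32.6 CPM in HFD. Vegfa, the angiogenic growth factor, was at 51.4, 55.5 and 40.6 CPM and then 105, 120.3 and 81.8 CPM in chow, and at 31.6, 43.7 and 58.9 CPM and then 76.9, 102 and 90.2 CPM in HFD. Neither gene overlapped between times, and Mif rose by 1.58 ± 0.16 and 1.43 ± 0.17 (adjusted p = 8.14e-07 and 5.01e-06) and Vegfa by 1.06 ± 0.20 and 1.05 ± 0.21 (adjusted p = 0.000672 and 0.00104). Ddit4, an inhibitor of mTORC1 also known as REDD1, was scarce, at 4.44, 2.59 and 1.91 CPM in chow 0 h and 18.4, 12.4 and 6.03 CPM in chow 24 h. In HFD it was at 0.624, 0.890 and 4.05 CPM and then 6.49, 7.78 and 5.87 CPM. Its rises of 2.03 ± 0.45 (adjusted p = 0.00258) and 2.43 ± 0.57 (adjusted p = 0.00436) carried large errors, and the HFD value was 3.14 without HFD 0 h replicate 3. Ankrd37, a small ankyrin repeat protein of hypoxic cells, was at 1.27, 1.86 and 0.832 CPM in chow 0 h and 3.21, 4.49 and 5.57 CPM in chow 24 h, and at 1.35, 3.12 and 2.25 CPM and then 3.17, 8.23 and 5.13 CPM in HFD. Ankrd37 rose by 1.74 ± 0.43 in chow (adjusted p = 0.0059) and 1.31 ± 0.44 in HFD (adjusted p = 0.0379), the latter call ending without chow 24 h replicate 2, HFD 0 h replicate 1 or 3, or HFD 24 h replicate 2 or 3 (0.93 to 1.39). That HFD call also ended with upper-quartile scaling (1.23), limma-voom (1.32), summed transcripts (1.31) or only the HFD libraries fitted (1.31). Adm, adrenomedullin, was at or below 1.45 CPM in every library and had a count of 0 in HFD 0 h replicate 1, too little to compare.

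Ndrg1, a stress gene that hypoxia induces in many cells, fell in both diets. It was at 37.2, 33.1 and 42.0 CPM in chow 0 h and 14.4, 12.3 and 14.3 CPM in chow 24 h. In HFD it was at 44.2, 52.5 and 52.6 CPM and then 11.9, 25.9 and 14.2 CPM. All 24 h libraries were below all 0 h libraries. The change was -1.45 ± 0.23 in chow (adjusted p = 0.000112) and -1.51 ± 0.23 in HFD (adjusted p = 7.95e-05). Fitted with the lane tag, the chow value was -0.70 and lost its call, and adjusted p over the alternatives ran from 5.99e-08 to 0.261. The HFD call held in every alternative run (-1.90 to -1.29).

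Chow 24 h replicate 3 had the lowest level of its group for 22 of the 34 members and for 16 of the 22 glycolytic ones, where it was lowest for 42.1% of all tested genes. For Hif1a it was the highest. Without it 24 members rose and 2 fell in chow, with Slc16a3 at 2.32, Eno1 at 1.35 and Hif1a at 1.38, and without the shallow HFD 0 h replicate 3 25 rose and 1 fell in HFD. HFD 24 h replicate 1, the lane-tagged one, was lowest of its group for 18 members (37% of all genes).

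The diet left no member past the test at either time, and no member's LPS response passed the test of a difference between diets. At 0 h 0 of 34 members passed by edgeR, where 0.087% of all genes did. At 24 h again 0 passed, against 0.00791% of all genes, and in the interaction 0 of 34 members and 0% of the 12641 genes passed. Members with an unadjusted p under 0.05 numbered 3, 2 and 2 in these comparisons, and 778, 993 and 297 of all genes. limma-voom also passed 0 members in each, and DESeq2 0 at 24 h and in the interaction and 1 at 0 h, the lower Aldoc. The 95% interval of the diet effect lay within 2-fold in either direction for 24 of 34 members at 0 h and 30 of 34 at 24 h, and that of the interaction for 23 of 34, so larger differences remain possible for the rest, mostly scarce genes. For Hif1a the interval ran from -0.47 to 0.30 at 0 h and from -0.23 to 0.53 at 24 h on the log2 scale, and for Slc2a1 from -0.18 to 0.41 and from -0.35 to 0.24.

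The members nearest to a diet difference were as follows. Aldoc was at 19.3, 19.2 and 16.6 CPM in chow 0 h and 12.1, 6.79 and 3.15 CPM in HFD 0 h, then at 15.4, 17.1 and 15.5 CPM in chow 24 h and 16.8, 9.91 and 15.7 CPM in HFD 24 h. All HFD 0 h libraries were below all chow 0 h libraries, with the shallowest library lowest. The estimate at 0 h was -1.18 ± 0.29 (adjusted p = 0.23) and passed without HFD 0 h replicate 1 (-1.71), with adjusted p from 0.0184 to 0.706 over the alternatives. Hk3 was at 558, 531 and 503 CPM in chow 0 h and 609, 631 and 753 CPM in HFD 0 h (0.32 ± 0.12, adjusted p = 0.637), then at 714, 801 and 772 CPM in chow 24 h and 761, 817 and 786 CPM in HFD 24 h. Its groups did not overlap at 0 h and did at 24 h. Slc2a6 at 0 h had an estimate of -0.65 ± 0.26 (adjusted p = 0.706).

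At 24 h the lowest p-values belonged to Pfkfb3 (-0.40 ± 0.12, adjusted p = 0.426), Hk1 (-0.39 ± 0.13, adjusted p = 0.509) and Ddit4 (-0.87 ± 0.42, adjusted p = 0.635). Hk1 was at 224, 205 and 184 CPM in chow 24 h and 159, 148 and 162 CPM in HFD 24 h, after 122, 119 and 111 CPM in chow 0 h and 112, 85.0 and 108 CPM in HFD 0 h. In 5 members (Hk1, Gpi1, Pfkfb3, Aldoa and Pkm) every HFD 24 h library was below every chow 24 h library, as for 5.98% of all genes, and 0 members lay the other way (6.28%). All 5 are glycolytic enzymes or regulators and none passed the test. At 0 h Pfkfb3 and Aldoc were lower in every HFD library and Hk3 and Ndrg1 higher (6.35% and 5.87% of all genes). For the interaction, Slc2a6 (0.95 ± 0.35), Aldoc (0.997 ± 0.40) and Egln3 (0.84 ± 0.49) had the smallest p, each with an adjusted p of 0.9998. The lane tag is unevenly spread over the 24 h groups, and its part in these values was not tested apart from the covariate fit, in which 0 members passed.

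Other genes of the same pathways did not move as a block. Of 28 further glycolytic and transporter genes 19 were tested, and 3 rose and 4 fell in chow and 3 rose and 3 fell in HFD, with medians of -0.04 and 0.17. Tigar, which lowers fructose 2,6-bisphosphate, rose by 0.96 ± 0.16 and 0.82 ± 0.16. Slc16a1, the lactate carrier MCT1, rose by 0.91 ± 0.17 and 0.81 ± 0.18, and Pgm1, which links glycogen to glycolysis, by 0.80 ± 0.13 and 0.57 ± 0.13. Ldhb, the lactate dehydrogenase subunit that favours pyruvate, fell by 0.93 ± 0.18 and 1.08 ± 0.19 (adjusted p = 0.000927 and 0.000332), opposite to Ldha, and Eno2 fell by 0.53 ± 0.19 and 0.84 ± 0.19, opposite to Eno1. Of 13 genes of pyruvate entry into mitochondria 12 were tested, with 3 rises and 2 falls in chow and 1 rise and 2 falls in HFD (medians 0.06 and 0.21). Pdk2, a sister kinase of Pdk1, fell by 0.93 ± 0.22 and 0.74 ± 0.23, the phosphatase Pdp2 fell by 1.07 ± 0.22 and 0.72 ± 0.23, Pdk3 and pyruvate carboxylase Pcx rose in chow (0.90 ± 0.21 and 1.40 ± 0.33), and Dlat, a pyruvate dehydrogenase subunit, rose in HFD (0.75 ± 0.15).

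Of 10 genes of the HIF machinery 9 were tested, and 1 rose and 2 fell in each diet (medians -0.17 and -0.26). Epas1, which encodes HIF2-alpha, fell from 270 to 388 CPM in chow 0 h to 44.8 to 51.0 CPM in chow 24 h, and from 382 to 483 CPM to 70.9 to 97.4 CPM in HFD. The fall was -2.80 ± 0.17 (adjusted p = 1.60e-09) and -2.46 ± 0.17 (adjusted p = 6.39e-09), opposite to Hif1a. Vhl, the ubiquitin ligase subunit that binds hydroxylated HIF, rose by 0.58 ± 0.17 and 0.74 ± 0.18, while Arnt2 fell in chow (-1.39 ± 0.49) and the HIF competitor Cited2 in HFD (-0.57 ± 0.13). Of 29 further HIF targets 26 were tested, and 13 rose and 5 fell in chow and 13 rose and 4 fell in HFD (medians 0.70 and 0.45). Hmox1, haem oxygenase, rose by 1.78 ± 0.15 and 1.25 ± 0.15, and Lox, lysyl oxidase, rose by 3.45 ± 0.43 in HFD. Nos2, inducible nitric oxide synthase, had a count of 0 in all 3 chow 0 h libraries and was at 492 to 656 CPM in chow 24 h, and in HFD it was at 0 to 1.35 CPM and then 119 to 261 CPM. Between diets at 24 h, 0 of these 26 tested targets passed by edgeR, Nos2 included (smallest adjusted p = 0.172). Cxcr4, a chemokine receptor, fell by 1.28 ± 0.18 and 1.08 ± 0.18. Over these 4 lists of 66 tested genes 20 rose and 13 fell in chow (30.3% and 19.7%, against 13.7% and 12.9% of all tested genes), and 18 rose and 11 fell in HFD (27.3% and 16.7%, against 12.7% and 12%). By list, the shares that rose in chow and HFD were 15.8% and 15.8% for further glycolytic genes and 25% and 8.33% for pyruvate entry. They were 11.1% and 11.1% for the HIF machinery and 50% and 50% for further HIF targets. The shares that fell were, in the same order, 21.1% and 15.8%, 16.7% and 16.7%, 22.2% and 22.2%, and 19.2% and 15.4%. Of the 34 members 73.5% rose in each diet. The members and these lists were chosen with earlier results of these data known, and the part of that choice in the difference was not tested.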

How the data were processed

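RNA from peritoneal macrophages was turned into libraries using a NuGen Ovation Universal RNA kit, per the protocols in the labels. CASAVA 1.8.2 and STAR 2.5.2b with build mm10 are named, per the submitters' processing notes; neither labels nor headers name the counter, its strand setting or its handling of multi-mapped reads. The authors deposited raw counts, whole and not normalized, for 35745 RefSeq transcripts in 12 libraries. Symbols were matched for 35440 identifiers by RefSeq and 188 by GENCODE; 117 had none and stayed in the totals under their identifiers. Each gene kept its transcript with the highest mean count, and identifiers without a symbol held 2.33% to 12.02% of a library's counts. Counting strand is unknown, and 13 members overlap exons of an antisense gene (Hk1, Hk3 and Aldoa among them) and 3 those of a gene on the same strand (Pfkm, Pkm and Hif1a), so such reads cannot be told apart.

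Genes passing filterByExpr were tested with edgeR 4.0.16 in R 4.3.3 (TMM totals, robust glmQLFit, glmQLFTest) in 1 model of 4 group means, with Benjamini-Hochberg adjustment at 0.05 over 12641 genes; the biological coefficient of variation was 18%. The SE is the absolute log2 fold change over the square root of F. On simulated counts for LPS in chow (12488 genes), 70% of 2-fold and 26.5% of 1.5-fold changes were recovered. Per-library values are given for members that passed an LPS comparison with at least 2-fold change, for Hif1a and Slc2a1, and for the 3 members with the smallest p in each diet comparison and the interaction; of other pathway lists, up to 4 genes with the smallest adjusted p, of which some are not reported here. The members and lists were chosen with earlier results of these data known. Copies were sought with BLAST 2.17.0. Alternatives were other scalings and filters, DESeq2 1.42.0, limma-voom (limma 3.58.1), a block, the lane tag, summed transcripts, only the groups compared, and each library left out.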

Additional observations from a re-analysis of the deposited data

How the results depend on the processing

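With 0 members reversing a call in any setting run, the count of members that rose was 24 to 26 in chow and 21 to 27 in HFD over other scalings, filters, DESeq2, limma-voom, summed transcripts and only the groups compared. Without 1 library it was 22 to 26 in chow and 21 to 26 in HFD, and the count that fell was 2 and 1. The lane tag as a covariate gave 18 higher and 0 lower in chow, and over all genes 874 higher and 635 lower in place of 1729 and 1628. For diet at 0 h, DESeq2 gave 1 lower member in place of 0, and leaving out 1 library gave 0 to 1 (HFD 0 h replicate 1, Aldoc); the cause was not tested. Deviations of same-numbered libraries from their group means correlated at 0.029 to 0.346 for LPS. Libraries of unequal number were not compared, so these values cannot settle whether equal numbers are pairs. The labels do not say so, and the main test did not pair them. A replicate block on the label number gave 26 higher and 2 lower in chow, 26 higher and 1 lower in HFD and 0 members for the interaction. Chow and HFD share no label number, so for the diet the block used replicate order, which the labels do not link. It gave 0 members. Isozyme shares move with the length used: without it, Hk2 held 12.7% and 21.1% in chow at 0 h and 24 h and 10.1% and 20.7% in HFD, Pfkl 40.1% in chow 0 h, and Pfkfb3 71.3% and 92.9% in chow and 69.9% and 89.1% in HFD. Adm, Ankrd37, P4ha2, Pfkm and Ddit4 had the fewest counts of the members (88 to 958 over the 12 libraries), and HFD 0 h replicate 3 was the shallowest library.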
